A study of Mus musculus with 12 samples.

Results

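Repressors that hold osteoclast differentiation back, and the factor that removes them, were followed here as 6 genes in preosteoclasts with and without LSD1. The genes are Irf8, Bcl6, Id1, Id2 and Id3, which restrain osteoclast formation, and Prdm1, which encodes BLIMP1. They were taken by symbol from a count table of 57010 genes, and each symbol matched 1 row. All 6 passed the filter on low counts that kept 15425 genes. Bone marrow came from 2 month old female mice by the labels, while the sequencing methods of the study give 3 months. It was flushed from the mandible or femur and grown for 2 days with M-CSF and RANKL, the cytokines that drive osteoclast formation. LSD1cKO mice carry floxed LSD1 (Kdm1a) alleles and a Cre driven by the myeloid gene Lyz2 (LysM-Cre), and LSD1WT mice are the controls. The 12 libraries form 6 conditions of 2 libraries, since each genotype has mandible and femur cultures from ligated mice and femur cultures from unligated ones. Ligated mice carried ligatures for 7 days, the ligature-induced periodontitis model. By the methods of the study these were on the second molars of the upper jaw, on both sides. Mandible cultures of unligated mice were not analysed here. The labels name 9 mice, and 3 of them (1 LSD1WT and 2 LSD1cKO) gave a mandible and a femur library.

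RANKL starts osteoclast formation through NFATc1, and this step needs repressors of Nfatc1 and of its targets to be cleared. IRF8 binds NFATc1 and blocks its action, BCL6 sits on the promoters of osteoclast genes such as Nfatc1, Ctsk and Dcstamp, and the ID proteins bind E proteins and other helix-loop-helix factors and keep them off DNA. BLIMP1 is a zinc finger repressor that rises with RANKL and shuts down Irf8 and Bcl6 in osteoclast precursors. LSD1, a histone demethylase, is among the cofactors that BLIMP1 is known to recruit.

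RefSeq promoter sequences (GRCm38.p6) were matched by symbol for 5 of the 6 genes, all but Id1, with a second annotated start for Irf8 and for Bcl6. The 250 bases before the start are shown for 5 of these 7 promoters, to let the genes that differ in direction below be compared at sequence level. Capitals mark every match, on either strand, to 6 motifs: the GAS element of STAT dimers (TTCNNNGAA), the ISRE core (GAAA, any 2 bases, GAAA), a PRDM1 core (GTGAAAG), a BCL6 core (TTCCTNGAA, which is also a GAS match), a BMP response element core bound by SMADs (GGCGCC) and the AP-1 site (TGANTCA). The windows are given 5′ to 3′ on the strand of the gene.
Irf8, first start, plus strand, chr8:120736108-120736357: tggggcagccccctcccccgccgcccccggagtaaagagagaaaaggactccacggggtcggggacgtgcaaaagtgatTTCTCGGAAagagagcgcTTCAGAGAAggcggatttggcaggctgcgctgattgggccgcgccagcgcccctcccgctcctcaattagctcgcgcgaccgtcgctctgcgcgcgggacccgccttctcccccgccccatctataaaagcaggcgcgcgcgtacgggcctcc
Bcl6, second start, minus strand, chr16:23981284-23981533: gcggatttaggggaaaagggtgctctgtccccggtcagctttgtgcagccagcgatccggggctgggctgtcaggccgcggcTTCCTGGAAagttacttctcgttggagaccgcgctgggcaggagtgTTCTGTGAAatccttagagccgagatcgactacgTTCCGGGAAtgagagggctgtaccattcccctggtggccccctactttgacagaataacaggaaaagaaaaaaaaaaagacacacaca
Prdm1, minus strand, chr10:44458749-44458998: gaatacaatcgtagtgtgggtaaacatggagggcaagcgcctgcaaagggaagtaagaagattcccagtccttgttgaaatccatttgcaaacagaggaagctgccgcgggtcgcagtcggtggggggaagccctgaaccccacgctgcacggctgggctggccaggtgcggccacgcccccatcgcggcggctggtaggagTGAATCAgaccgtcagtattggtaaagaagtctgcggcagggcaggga
Id2, minus strand, chr12:25096093-25096342: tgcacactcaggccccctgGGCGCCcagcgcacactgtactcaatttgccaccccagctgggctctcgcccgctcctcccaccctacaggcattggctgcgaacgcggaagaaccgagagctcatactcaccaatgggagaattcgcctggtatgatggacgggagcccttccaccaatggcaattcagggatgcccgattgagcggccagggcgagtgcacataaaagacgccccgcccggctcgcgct
Id3, plus strand, chr4:136143572-136143821: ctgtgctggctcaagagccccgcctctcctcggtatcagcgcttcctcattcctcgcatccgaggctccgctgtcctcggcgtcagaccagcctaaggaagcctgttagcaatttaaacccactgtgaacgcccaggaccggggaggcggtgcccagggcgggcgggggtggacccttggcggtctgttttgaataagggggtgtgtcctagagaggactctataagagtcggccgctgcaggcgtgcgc
The Irf8 window held 2 GAS matches and the second Bcl6 window held 3, of which 1 was also the BCL6 core. The first Bcl6 window, not printed, held 1 GAS match, and the second Irf8 window held none of the motifs. The Prdm1 window held 1 AP-1 match, the Id2 window 1 BMP response element core, and the Id3 window none. Among 32851 RefSeq promoters of this length, 7.02% held a GAS match, 1.31% the BCL6 core, 6.75% an AP-1 match and 9.59% the BMP response element core. The ISRE core (2.98% of promoters) and the PRDM1 core (3.57%) were in none of the 7 windows. Gene counts do not show which start was used, and a match is a description of these letters only.

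Total counts ran from 21375805 to 32526751 per library, with a median of 26364586. Kdm1a, the targeted gene, was at 15.6 to 24.3 CPM (counts relative to TMM-scaled library size) in the 6 LSD1cKO libraries and at 61.2 to 71.3 CPM in the 6 LSD1WT libraries, so it matched the labels. Its log2 fold change was -1.82 (SE 0.11, edgeR quasi-likelihood test over the 3 cultures, adjusted p = 3.56e-05). Replicate 2 of LSD1WT stood apart in both femur conditions, which are 2 different mice. The summed level of 10 osteoclast genes (Nfatc1, Acp5, Ctsk, Dcstamp, Ocstamp, Atp6v0d2, Itgb3, Oscar, Mmp9, Calcr) was 168.2 and 238.3 CPM in these 2 libraries, against 11544.5 to 40906.5 CPM in the other 10. Their macrophage marker sums (7 genes) were 12092.0 and 9431.8 CPM, against 1585.3 to 4442.2 CPM in the other 10. Genotype and site results are therefore given with and without this pair. The labels of mandible LSD1WT replicate 3 conflict, with mandible in the title but femur in the name of the library, and the title was followed. It was almost the same as mandible LSD1WT replicate 1, with a median chi-square of 0.709 per gene, against 2.61 to 56.5 in the other 5 pairs. In bulk RNA, fewer cells of a type and less RNA per cell cannot be told apart. Replicates of a condition are different mice by the labels, with 2 per condition.

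The level of the 6 genes per kilobase of exon, as a median over the 12 libraries, was highest for Prdm1 at 26.6 CPM per kb and lowest for Id1 at 2.39. Id2 was at 20.6, Id3 at 13.8, Irf8 at 5.55 and Bcl6 at 3.60 CPM per kb. The range over libraries differed between genes. Id2 ran from 16.8 to 61.4 CPM per kb and Bcl6 from 2.05 to 10.4. Id1 ran from 0.950 to 43.1 and Id3 from 2.35 to 82.0. All later levels are in CPM within 1 gene.

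Mandible libraries of LSD1WT held 9.59 and 9.94 CPM of Irf8, and those of LSD1cKO held 14.3 and 19.5. Femur libraries of ligated LSD1WT mice held 20.3 and 232.5 CPM (replicates 1 and 2), against 84.5 and 73.3 for LSD1cKO. Without ligature, femur LSD1WT held 29.0 and 173.2 CPM, against 49.3 and 57.2 for LSD1cKO. The 4 mandible libraries are thus the lowest, and the pair that stands apart is the highest. By condition means the order was LSD1WT femur ligated, LSD1WT femur unligated, LSD1cKO femur ligated, LSD1cKO femur unligated, LSD1cKO mandible and LSD1WT mandible. The first 3 of these overlapped with their neighbours, and the last 4 did not overlap with one another.

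Bcl6 varied less. Its mandible values were 13.7 and 14.2 CPM for LSD1WT, against 21.6 and 23.5 for LSD1cKO. With ligature, its femur values were 22.1 and 41.8 CPM for LSD1WT, against 27.0 and 24.6 for LSD1cKO. Femur cultures of unligated mice gave 19.5 and 69.6 CPM for LSD1WT, against 35.1 and 27.8 for LSD1cKO. Mandible LSD1WT was again the lowest condition, and replicate 2 of femur LSD1WT the highest. The 4 lowest of the 6 conditions by mean did not overlap with one another, and the highest of these 4, LSD1cKO femur unligated, overlapped with LSD1WT femur ligated.

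Prdm1 was high where Irf8 and Bcl6 were lowest, in mandible LSD1WT, and low in the pair that stands apart. Mandible LSD1WT libraries held 219.1 and 219.5 CPM, against 135.6 and 138.2 for LSD1cKO. Ligated femur libraries held 283.9 and 32.4 CPM for LSD1WT, against 158.4 and 137.7 for LSD1cKO. Unligated femur libraries held 239.6 and 12.6 CPM for LSD1WT, against 210.5 and 95.3 for LSD1cKO. The 4 highest values are thus those of LSD1WT without the pair that stands apart, and that pair holds the 2 lowest. With all libraries, every condition overlapped with its neighbour in the order of means.

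**Figure D1:**
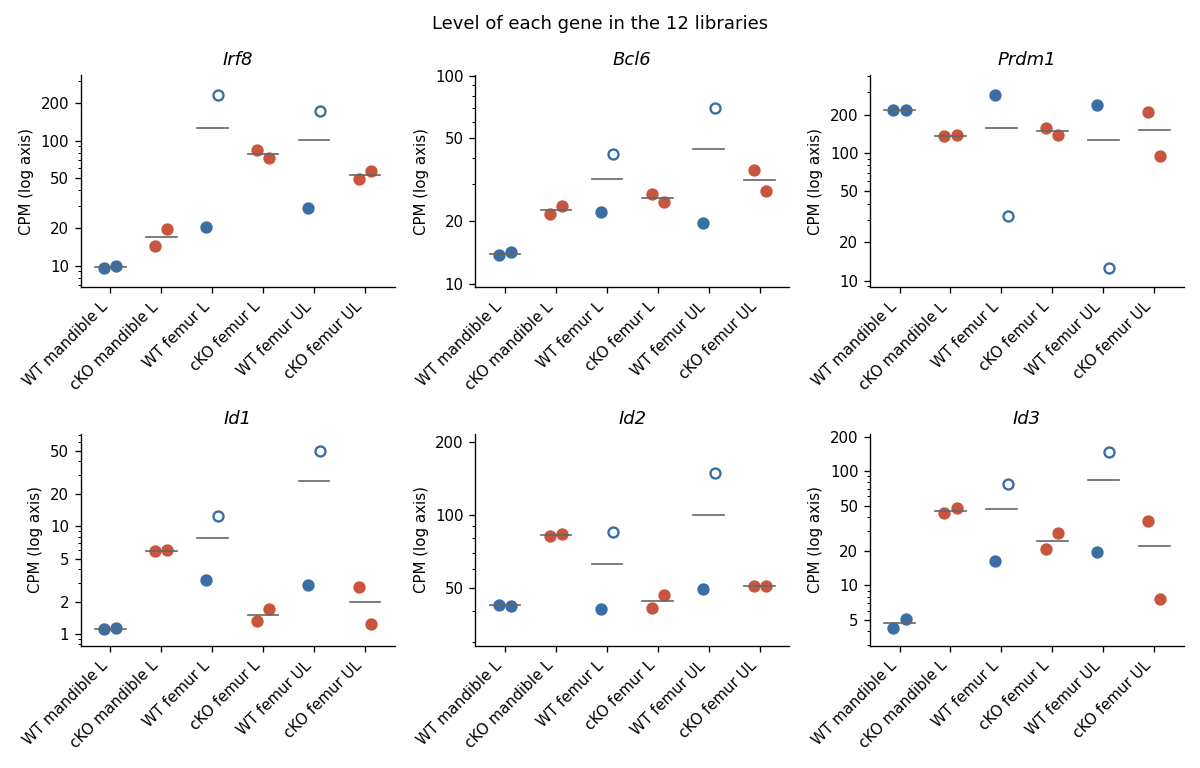
Level of each gene in CPM (log axis) in the 12 libraries, by condition (L, ligated; UL, unligated); blue is LSD1WT, red is LSD1cKO, the open circles are the 2 femur LSD1WT replicate 2 libraries, and the grey line is the mean of the 2 libraries. The open circles are the highest values of 5 genes and the lowest of Prdm1. In the mandible the genotypes do not overlap for any of the 6 genes. Over all genes 34.1% were higher in LSD1cKO in that way and 34.8% lower.

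All 3 Id genes were higher in the LSD1cKO mandible than in the LSD1WT mandible and the LSD1cKO femur, without overlap, and overlapped with the range of LSD1WT femur. Over all genes, 34.1% were higher without overlap in the LSD1cKO mandible than in the LSD1WT mandible. Against the ligated LSD1cKO femur 35.3% were. Id3 mandible values were 4.203 and 5.10 CPM for LSD1WT, against 42.8 and 47.4 for LSD1cKO. Its ligated femur values were 16.3 and 77.2 CPM for LSD1WT, against 20.6 and 28.7 for LSD1cKO. Without ligature they were 19.7 and 146.9 CPM for LSD1WT, against 36.7 and 7.62 for LSD1cKO. Mandible LSD1WT was thus below every other library, while the LSD1cKO mandible was above the LSD1cKO femur. Id1 mandible values were 1.10 and 1.14 CPM for LSD1WT, against 5.87 and 5.96 for LSD1cKO. Its femur values were 3.17 and 12.5 CPM (LSD1WT) and 1.32 and 1.71 CPM (LSD1cKO) with ligature, and 2.83 and 49.98 CPM (LSD1WT) and 2.71 and 1.25 CPM (LSD1cKO) without. By CPM, only Id1 of the 6 genes had LSD1cKO all above LSD1WT in the mandible and all below it in both femur conditions. In unligated mice that gap was close to a tie, with 2.71 CPM (76 counts, LSD1cKO) against 2.83 CPM (74 counts, LSD1WT), both replicate 1. Of all genes, 19.4% were lower in LSD1cKO without overlap for ligated femur cultures, and 8.57% for unligated ones. The share of all genes with the whole pattern was not tested. Id2 mandible values were 42.6 and 42.0 CPM for LSD1WT, against 81.9 and 83.2 for LSD1cKO. Its femur values were 41.0 and 84.8 CPM (LSD1WT) and 41.2 and 46.8 CPM (LSD1cKO) with ligature, and 49.6 and 149.7 CPM (LSD1WT) and 50.9 and 51.0 CPM (LSD1cKO) without. Outside the LSD1cKO mandible and the pair that stands apart, Id2 lay between 41.0 and 51.0 CPM. By condition means LSD1WT mandible was the lowest for all 3 Id genes. It overlapped with the next condition for Id2 and not for Id1 or Id3.

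Whether loss of LSD1 raised the repressors was asked first over the 3 cultures, with 6 libraries of each genotype and the culture as a term. With all 12 libraries, 0 of the 6 genes passed the edgeR quasi-likelihood test at an adjusted p of 0.05, where 3.53% of all genes did. None had an unadjusted p under 0.05, where 16.1% of all genes had one, and DESeq2 called 0, where it called 8.09% of all genes. The libraries of the genotypes overlapped for all 6, while 1.98% of all genes were higher and 0.797% lower without overlap. The log2 fold changes lay between -1.58 for Id1 (SE 1.23) and -0.04 for Bcl6 (SE 0.32). The nominal 95% intervals were wide, from -1.43 to 0.85 for Irf8 and from -1.40 to 1.07 for Prdm1. They use the normal quantile of the SE, which makes them too narrow with this few libraries. The 6 genes had a median of -0.18, against -0.06 for all genes tested. Without the 2 femur LSD1WT replicate 2 libraries, 4 of the 6 genes passed, where 24.2% of all genes did. Irf8 rose (log2 fold change 1.17, SE 0.21, adjusted p = 0.00256), and so did Bcl6 (0.60, SE 0.11, adjusted p = 0.00386) and Id2 (0.49, SE 0.16, adjusted p = 0.0451). Prdm1 fell by 0.70 on the log2 scale (SE 0.18, adjusted p = 0.0177). Id3 (1.505, SE 0.58, adjusted p = 0.0888) and Id1 (0.49, SE 0.55, adjusted p = 0.564) did not pass. The sign of 5 of the 6 genes thus depended on those 2 libraries, and that of Prdm1 did not.

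In the mandible of ligated mice the 2 LSD1cKO libraries lay outside the 2 LSD1WT libraries for all 6 genes, higher for 5 and lower for Prdm1. Over all genes, 34.1% were higher without overlap and 34.8% lower. The largest difference was that of Id3, with a log2 fold change of 3.28 (SE 1.11, 9.68-fold), followed by Id1 at 2.40 (SE 1.14), Id2 at 0.96 (SE 0.48), Irf8 at 0.79 (SE 1.01) and Bcl6 at 0.70 (SE 0.52). Prdm1 was at -0.68 (SE 1.19). In the edgeR quasi-likelihood test over the 12 libraries 0 of the 6 genes passed, where 0% of all genes did. DESeq2 called 0 of the 6 and 0.947% of all genes. Only Id3 had an unadjusted p under 0.05, where 4.82% of all genes had one, and its adjusted p was 0.785 (edgeR). The spread in that fit is shared with the femur conditions. Without the 2 femur LSD1WT replicate 2 libraries, 5 genes passed, where 5.85% of all genes did. These were Id2 (1.00, SE 0.12, adjusted p = 0.00381), Id1 (2.43, SE 0.38, adjusted p = 0.0117), Id3 (3.31, SE 0.65, adjusted p = 0.028), Bcl6 (0.73, SE 0.15, adjusted p = 0.0363) and Irf8 (0.82, SE 0.18, adjusted p = 0.0401). Prdm1 did not pass (-0.65, SE 0.32, adjusted p = 0.324). With the 4 mandible libraries alone, all 6 passed, where 37.7% of all genes did. The fit without the 2 femur LSD1WT replicate 2 libraries has 1 library in each femur LSD1WT condition. Its spread thus comes from the LSD1cKO pairs and the nearly identical mandible LSD1WT pair. The fit to the mandible alone also takes its spread in part from that LSD1WT pair. With that pair summed into 1 library, 6 passed in the mandible alone, where 25.1% of all genes did, but that fit sets 2 libraries against 1 and takes its spread from the LSD1cKO pair, with 1 residual degree of freedom. The same summing in the fit to all conditions called 0 of the 6, where 0% of all genes passed. Beside these values, the summed level of the 10 osteoclast genes was 26090.5 and 26213.9 CPM in LSD1WT and 14649.7 and 14778.8 CPM in LSD1cKO. The macrophage marker sum was 2048.5 and 2067.8 CPM in LSD1WT and 1585.3 and 1939.8 CPM in LSD1cKO. The sum of 8 stromal and endothelial markers was 42.9 and 43.4 CPM in LSD1WT, against 11.7 and 9.09 in LSD1cKO. Genes within the last 2 lists went both ways. The log2 fold change was above 0 for 4 of the 7 macrophage genes and below 0 for 3. Of the 6 stromal and endothelial genes tested, 3 were lower in LSD1cKO without overlap and 2 higher. The part of these sums in the result was not tested.

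**Figure D2:**
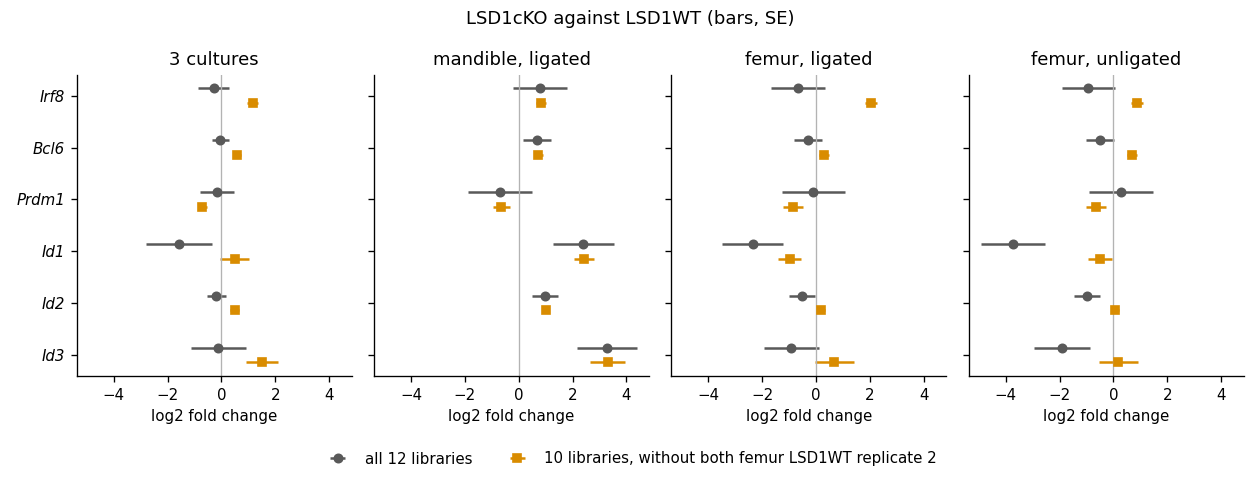
Log2 fold change of LSD1cKO against LSD1WT for the 6 genes over the 3 cultures and in each culture (bars, SE); grey circles are the fit to all 12 libraries and orange squares the fit to 10 libraries, without the 2 femur LSD1WT replicate 2 libraries. In the mandible the estimates hardly move between the fits while the bars shorten, and in both femur conditions Irf8 changes sign, in the ligated femur from -0.68 to 2.04.

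In the femur the comparison turned on LSD1WT replicate 2. With ligature the log2 fold changes of LSD1cKO against LSD1WT were -0.68 for Irf8 (SE 0.99), -0.31 for Bcl6 (SE 0.52), -0.10 for Prdm1 (SE 1.18), -2.36 for Id1 (SE 1.13), -0.52 for Id2 (SE 0.48) and -0.92 for Id3 (SE 1.02). By edgeR 0 of the 6 genes passed, where 0.00648% of all genes did, none had an unadjusted p under 0.05, where 6.88% had one, and DESeq2 called 0, where it called 1.41% of all genes. Only Id1 did not overlap between the genotypes, lower in LSD1cKO, where 19.4% of all genes were lower and 14.8% higher without overlap. Without the pair that stands apart 1 gene passed, where 9.35% of all genes did: Irf8 rose, with a log2 fold change of 2.04 (SE 0.23, adjusted p = 0.00419). Its 2 LSD1cKO libraries (84.5 and 73.3 CPM) were then set against 1 LSD1WT library (20.3 CPM), assumed to vary like the other conditions. Prdm1 was at -0.85 (SE 0.38, adjusted p = 0.209) and Id1 at -0.98 (SE 0.44, adjusted p = 0.212). Bcl6, Id2 and Id3 were at 0.31, 0.19 and 0.68, with standard errors of 0.19, 0.14 and 0.74. That LSD1WT library had an osteoclast gene sum of 40906.5 CPM, against 20274.6 and 17748.7 in LSD1cKO. The macrophage sum was 3448.5 CPM, against 3852.8 and 3080.2. The stromal and endothelial sum was 7.60 CPM, against 44.9 and 46.7. With all libraries, 3 of the 6 stromal and endothelial genes tested were higher in LSD1cKO and 3 lower. The part of these sums in the result was not tested.

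In the unligated femur Id1 had the largest difference, with a log2 fold change of -3.74 (SE 1.18, adjusted p = 0.71, edgeR). It was the only gene of the 6 with an unadjusted p under 0.05, where 4.95% of all genes had one, and the only one without overlap, where 8.57% of all genes were lower and 9.82% higher in that way. By edgeR 0 of the 6 genes passed, where 0% of all genes did. DESeq2 called Id1 (-3.73, adjusted p = 0.0395), where it called 0.791% of all genes. The nearest libraries were close to a tie, at 2.83 CPM (LSD1WT) and 2.71 CPM (LSD1cKO). The value rests on 1 library, LSD1WT replicate 2 at 49.98 CPM. Without the pair that stands apart Id1 was at -0.50 (SE 0.44, adjusted p = 0.637). Irf8 went from -0.93 (SE 1.00) to 0.89 (SE 0.22, adjusted p = 0.0867) and Bcl6 from -0.50 (SE 0.52) to 0.70 (SE 0.19, adjusted p = 0.11). Prdm1 went from 0.28 (SE 1.18) to -0.64 (SE 0.38, adjusted p = 0.449). Id2 and Id3, at -0.97 and -1.91 with all libraries, were at 0.05 and 0.18. None of the 6 passed in that fit, where 2.47% of all genes did. The osteoclast gene sums of the LSD1cKO pair differed here too, at 29103.3 and 11544.5 CPM for replicates 1 and 2, and Prdm1 (210.5 and 95.3 CPM), Id1 (2.71 and 1.25 CPM) and Id3 (36.7 and 7.62 CPM) were higher in replicate 1.

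The site comparison set mandible against femur in ligated mice. In LSD1cKO, Irf8 was lower in the mandible (log2 difference -2.22, SE 1.04) while Id1 (1.963, SE 1.12), Id2 (0.91, SE 0.48) and Id3 (0.87, SE 1.01) were higher, each without overlap. Bcl6 (-0.19, SE 0.52) was also lower without overlap, and Prdm1 (-0.11, SE 1.18) overlapped. Over all genes 35.3% were higher and 35% lower without overlap. By edgeR 0 of the 6 passed in the fit to 12 libraries, where 0% of all genes did, none had an unadjusted p under 0.05, where 15% had one, and DESeq2 called 0, where it called 5.25% of all genes. The 2 LSD1cKO mice gave both sites. With the mouse as a block over the 8 ligated libraries, 4 genes passed, where 37.5% of all genes did. That fit has 1 residual degree of freedom, so its spread comes from these 2 mice. Irf8 was at -2.24 (SE 0.17, adjusted p = 2.79e-09), Id1 at 1.97 (SE 0.26, adjusted p = 3.73e-06), Id2 at 0.91 (SE 0.15, adjusted p = 6.58e-05) and Id3 at 0.89 (SE 0.16, adjusted p = 0.000126). Without the pair that stands apart, which holds no LSD1cKO library but takes part in the shared spread, Irf8, Id1 and Id2 passed, where 21.7% of all genes did.

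In LSD1WT the mandible was below the ligated femur for Irf8, Bcl6, Id1 and Id3, again without overlap, where 31.5% of all genes were lower and 29.2% higher in that way. The log2 differences were -3.69 for Irf8 (SE 1.11, adjusted p = 0.182), -3.33 for Id3 (SE 1.11, adjusted p = 0.195) and -2.79 for Id1 (SE 1.15, adjusted p = 0.234), the 3 genes with an unadjusted p under 0.05, where 19.8% of all genes had one. Bcl6 was at -1.20 (SE 0.53), Id2 at -0.57 (SE 0.48) and Prdm1 at 0.47 (SE 1.18), and Id2 and Prdm1 overlapped. By edgeR 0 of the 6 passed (adjusted p of 0.182 to 0.838), where 0% of all genes did. DESeq2 called Irf8 (-3.67, adjusted p = 0.00401) and Id3 (-3.30, adjusted p = 0.014), where it called 7.71% of all genes. With the mouse as a block the LSD1WT value rests on the 1 mouse that gave both sites and has no replicate, and the spread comes from the 2 LSD1cKO mice. Under that assumption 3 genes passed, where 7.18% of all genes did: Irf8 at -1.04 (SE 0.25, adjusted p = 0.0129), Id1 at -1.48 (SE 0.39, adjusted p = 0.0253) and Id3 at -1.91 (SE 0.25, adjusted p = 5.93e-05). Without the pair that stands apart these 3 kept their sign, at -1.03, -1.46 and -1.77, and did not pass (adjusted p of 0.0779, 0.18 and 0.31). Macrophage markers moved with site: their sum was 1585.3 to 2067.8 CPM over the 4 mandible libraries and 3080.2 to 12092.0 CPM over the 4 ligated femur libraries, and all 7 were lower in the mandible without overlap in each genotype. C1qa was at 5.43 to 13.0 CPM in the mandible and 51.4 to 868.2 CPM in the ligated femur. The stromal and endothelial sum was 44.9 and 46.7 CPM in the LSD1cKO ligated femur, against 11.7 and 9.09 in its mandible, and in LSD1WT 7.60 and 30.8 against 42.9 and 43.4. Most genes of that list ran against its sum in LSD1cKO. Of the 6 tested, 4 were higher in the mandible without overlap and 2 lower, where 35.3% and 35% of all genes were. The neutrophil sum (7 genes) was 301.1 and 274.7 CPM in the LSD1cKO ligated femur, against 136.3 and 162.7 in its mandible, and overlapped in LSD1WT. Of these 7 genes, 5 were lower in the LSD1cKO mandible without overlap and 2 higher. All 7 dendritic genes tested were lower in the LSD1cKO mandible without overlap, and 4 of them in LSD1WT. Their part in the site difference was not tested.

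**Figure D3:**
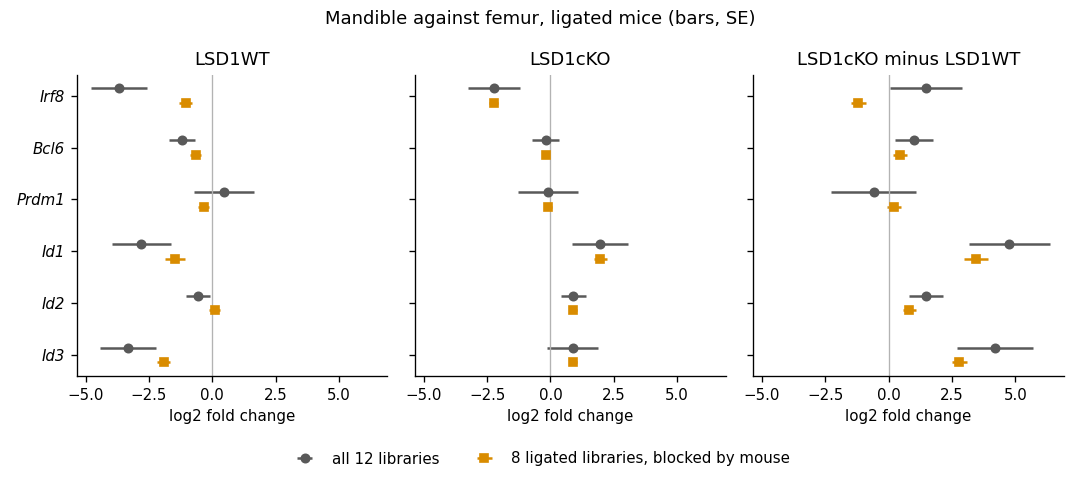
Log2 difference of mandible against femur in ligated mice for the 6 genes in LSD1WT, in LSD1cKO, and as the difference of the 2 genotypes (bars, SE); grey circles are the fit to all 12 libraries and orange squares the fit to the 8 ligated libraries with the mouse as a block. Id1 and Id3 lie below 0 in LSD1WT and above 0 in LSD1cKO in both fits, whereas Irf8 lies below 0 in both genotypes.

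The difference between the site effects of the genotypes was tested as an interaction. Id1 (4.76, SE 1.60) and Id3 (4.197, SE 1.49) had an unadjusted p under 0.05 in edgeR, where 0.966% of all genes did, and both had an adjusted p of 1. By edgeR 0 of the 6 genes passed, where 0% of all genes did, and DESeq2 called 0, where it called 0.00648% of all genes. With the mouse as a block, where LSD1WT is again 1 mouse and the spread that of the 2 LSD1cKO mice, 3 passed, as did 2.95% of all genes: Id3 at 2.80 (SE 0.30, adjusted p = 4.48e-05), Id1 at 3.45 (SE 0.47, adjusted p = 0.000623) and Irf8 at -1.19 (SE 0.30, adjusted p = 0.0325). For Irf8 the sign is the reverse of that in the fit to 12 libraries (1.47, SE 1.41), in which LSD1WT replicate 2 of the ligated femur (232.5 CPM) takes part. Without the pair that stands apart Id1 was at 3.41 (SE 0.57) and Id3 at 2.63 (SE 0.93), and 0 of the 6 passed, where 0% of all genes did. With all 12 libraries Bcl6 was at 1.00 (SE 0.73), Id2 at 1.48 (SE 0.68) and Prdm1 at -0.58 (SE 1.67).

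Ligature at the upper molars was compared at a distance, in the femur. Levels of the 6 genes with and without ligature are those given above. In LSD1WT all 6 genes overlapped between ligated and unligated femur, while 5.25% of all genes were higher and 3.93% lower without overlap. In LSD1cKO, Irf8 was higher with ligature (84.5 and 73.3 against 49.3 and 57.2 CPM), and Bcl6 (27.0 and 24.6 against 35.1 and 27.8 CPM) and Id2 (41.2 and 46.8 against 50.9 and 51.0 CPM) were lower, without overlap. Over all genes 14% were higher and 16% lower without overlap. By edgeR 0 of the 6 passed in either genotype, where 0% of all genes did. None had an unadjusted p under 0.05, where 0.765% of all genes had one in LSD1WT and 0.959% in LSD1cKO. DESeq2 called 0 in both, where it called 0.013% of all genes in LSD1WT and 0.00648% in LSD1cKO. For the difference of the genotype effect between ligated and unligated femur DESeq2 and edgeR each called 0 of the 6 and 0% of all genes. None of the 6 had an unadjusted p under 0.05 there (edgeR), where 0.344% of all genes had one.

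The levels of Prdm1 and of the genes it is known to repress were set side by side in each library. The ratio of Prdm1 to Irf8 CPM, compared between libraries only, was 22.9 and 22.1 for LSD1WT mandible libraries, against 9.51 and 7.09 for LSD1cKO. Ligated femur libraries had ratios of 13.96 and 0.139 for LSD1WT and 1.88 for each LSD1cKO library. Without ligature the ratios were 8.27 and 0.0729 for LSD1WT, against 4.27 and 1.67 for LSD1cKO. In each culture both LSD1cKO libraries were thus below LSD1WT replicate 1 and, in the mandible, replicate 3, and in the femur above LSD1WT replicate 2. The correlation of log2 CPM between Prdm1 and Irf8 was -0.747 over the 12 libraries and -0.42 over the 10 without the pair that stands apart. That of Prdm1 and Bcl6 was -0.841 over the 12 and -0.402 over the 10. Prdm1 was also negatively correlated with Id2 (-0.85 and -0.488), Id1 (-0.817 and -0.0233) and Id3 (-0.688 and -0.208). All 5 were nearer 0 without the pair. Irf8 and Bcl6 stayed close, at 0.871 and 0.807. Id1 correlated with Id2 at 0.937 over the 12 and 0.811 over the 10, and with Id3 at 0.878 and 0.804, while Id1 and Irf8 were at 0.521 and -0.175. All libraries share the culture protocol and these values are descriptions.

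**Figure D4:**
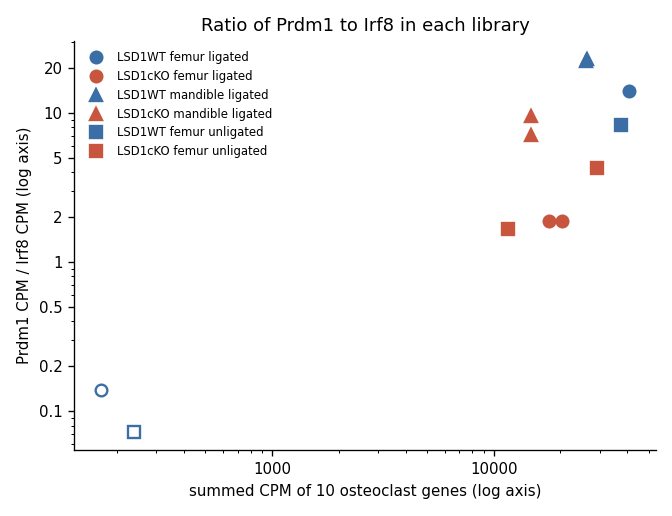
Ratio of Prdm1 to Irf8 CPM (log axis) against the summed CPM of 10 osteoclast genes (log axis) in each of the 12 libraries; blue is LSD1WT, red is LSD1cKO, triangles are mandible ligated, circles femur ligated, squares femur unligated, and open symbols the 2 femur LSD1WT replicate 2 libraries. The open symbols have the lowest ratios, 0.139 and 0.0729, and the lowest osteoclast sums, and the 2 mandible LSD1WT libraries have the highest ratios, 22.9 and 22.1.

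Other genes of these pathways were read from lists chosen for their known roles. Among 10 other transcriptional repressors of osteoclast formation, 8 were tested over the 3 cultures and 1 passed, higher in LSD1cKO, where 3% of all genes were called higher. This was Klf4, a zinc finger factor of monocytes, at 37.2 CPM in LSD1cKO and 12.2 CPM in LSD1WT (log2 fold change 1.61, SE 0.16, adjusted p = 0.000919). Its 6 LSD1cKO libraries (29.3 to 41.3 CPM) were all above its 6 LSD1WT libraries (9.60 to 16.1 CPM), and unlike Irf8 and Bcl6 it was not high in the pair that stands apart (9.60 and 16.1 CPM). The lowest of the list was Nr4a1, an orphan nuclear receptor, at -0.81 (SE 0.34, adjusted p = 0.265). In the mandible 6 of the 8 were higher without overlap and 1 lower, where 34.1% and 34.8% of all genes were, and the list's median log2 fold change was 0.60, against 0.00 for all genes.

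None of the 3 E proteins, the binding partners of the ID proteins, passed over the 3 cultures, where 3.53% of all genes did. Tcf12 was the highest E protein (0.02, SE 0.19) and Tcf4 the lowest (-0.36, SE 0.42). Among 5 cofactors of BLIMP1 only Kdm1a, the deleted gene, passed, against the same 3.53% of all genes. None of 10 receptors and SMADs of the BMP pathway, which acts upstream of the Id genes in many cells, passed, against the same 3.53%. Their median was -0.33, against -0.06 for all genes. Smad9 was the lowest of them at -1.13 (SE 1.11). In the mandible it went the other way, at very low counts. Each LSD1WT library there had 1 count (0.0408 and 0.0367 CPM), against 11 and 18 counts for LSD1cKO (0.378 and 0.556 CPM). None of the 10 osteoclast genes passed in any of the 10 comparisons of the fit to 12 libraries. Over all genes 3.53% passed over the 3 cultures, 0.00648% in the ligated femur between genotypes and 0% in the other comparisons. In the mandible all 10 were lower in LSD1cKO without overlap (median -0.80), as were Prdm1 and 34.8% of all genes.

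For each of the 6 genes the genes with the most similar pattern were those with the highest Pearson correlation of log2 CPM over the 12 libraries. For Prdm1 this was Fosl2 (0.994), for Irf8 an unnamed gene (ENSMUSG00000121059) and Tlr7 (0.994 each), and for Bcl6 Pygb (0.987). For Id2 it was Cxcl14 (0.972), for Id1 Hdac4 (0.951), with Id2 close behind (0.937), and for Id3 Tradd (0.942). Over the 10 libraries without the pair that stands apart, Pygb was again first for Bcl6 (0.987) and Fosl2 was still at 0.99 with Prdm1. The first places of the other genes went to Ext1 for Prdm1 (0.997), Ifi204 for Irf8 (0.995), Smad9 for Id1 (0.911), Cd34 for Id2 (0.96) and Mycl for Id3 (0.943). Smad9 had very low counts in the mandible, as given above. With 12 or 10 libraries these are descriptions.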

How the data were processed

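PolyA RNA of 12 preosteoclast libraries was sequenced, and the authors deposited raw read counts for 57010 Ensembl genes without normalization. The submitters' processing notes name HISAT2 2.1.0, FastQC, featureCounts, edgeR and the GRCm39 build, with strand setting and annotation not given in the sources used here. From these counts, groups were taken from the sample titles. In R 4.3.3 with edgeR 4.0.16, 15425 genes were kept (filterByExpr, minimum count 10), scaled by TMM and fitted by quasi-likelihood with 1 coefficient for each of 6 conditions, or with culture and genotype for the 3 cultures. P-values were adjusted by Benjamini-Hochberg over all 15425 genes and held to 0.05. SE is the log2 fold change divided by the square root of F. CPM uses TMM-scaled library sizes, log2 CPM for correlations a prior count of 2, and exon lengths came from GENCODE vM21 by Ensembl identifier. Alternatives were DESeq2 1.42.0, RLE and upper-quartile scaling, no filter beyond 1 count, a mean of 10 counts, each library left out, both femur LSD1WT replicate 2 libraries left out, the conditions of a comparison alone, the library with conflicting labels as femur, and blocks by replicate number and by mouse. Summing the mandible LSD1WT pair and correlations without the femur pair were added after the data were seen. Mouse pairing comes from the labels, and deviations of the 2 LSD1cKO mice correlated at 0.026 between sites. The fits were tested on simulated counts with the same spread in every library and no difference between sites. That test does not cover the femur LSD1WT pair that stands apart or the nearly identical mandible LSD1WT pair. Genes named are the 6 members, genes of the lists past the threshold or at the extremes over the 3 cultures, and the most similar genes. The members and lists were chosen with earlier results of these data known.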

Additional observations from a re-analysis of the deposited data

Results flagged for a closer look

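Id1 in femur LSD1WT unligated replicate 2 was far above the other 5 LSD1WT libraries. It was at 49.98 CPM, and its gap to the next library made up 0.767 of the range of the 6, past the 95% critical value of Dixon for 6 samples. The 6 libraries of a genotype span 3 cultures and are not replicates of 1 condition. Of 12 such groups (6 genes in 2 genotypes) 1 passed it, and chance gives about 1 in 20.

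The genotype difference of Id1 had opposite signs in the cultures. LSD1cKO against LSD1WT was at 2.40 on the log2 scale in the mandible, -2.36 in the femur with ligature and -3.74 without, and in each the libraries did not overlap. Over all genes 34.1% were higher in that way in the mandible, 19.4% lower in the ligated femur and 8.57% lower in the unligated femur. Without ligature the nearest libraries were at 2.83 CPM (LSD1WT) and 2.71 CPM (LSD1cKO), and the value rests on LSD1WT replicate 2 at 49.98 CPM. Without the pair that stands apart the femur values were -0.98 with ligature and -0.50 without. The difference between mandible and ligated femur was tested as an interaction (4.76, SE 1.60, adjusted p = 1, edgeR over all genes). That between mandible and unligated femur was not tested.

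Mandible against ligated femur went opposite ways in the genotypes for Id1 (-2.79 in LSD1WT and 1.963 in LSD1cKO) and Id3 (-3.33 and 0.87), each without overlap. Over all genes 31.5% were lower in that way in LSD1WT and 35.3% higher in LSD1cKO. For Id3 the interaction was 4.197 (SE 1.49, adjusted p = 1, edgeR).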

How the results depend on the processing

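The number of the 6 genes called, 0 in each comparison, moved under the following settings. Leaving out the 2 femur LSD1WT replicate 2 libraries gave 4 over the 3 cultures, 5 for the mandible, 1 for femur with ligature and 3 for site in LSD1cKO. The conditions alone gave 6 in the mandible and 4 for site in LSD1cKO (42.1% of all genes), and the mandible with the LSD1WT pair summed gave 6. DESeq2 gave 1 in the unligated femur and 2 for site in LSD1WT, and no filter gave 2 there (3.02% of all genes). The block by mouse gave 3 for site in LSD1WT, 4 for site in LSD1cKO and 3 for the site interaction. Leaving out 1 library gave 0 to 2 for site in LSD1WT (2 without ligated femur LSD1WT replicate 1, where 23.2% of all genes passed) and 0 in the other 9 comparisons. Of 223 such counts, 209 stayed at 0.

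Signs that turned without the 2 femur LSD1WT replicate 2 libraries were those of Irf8 (1.17), Bcl6 (0.60), Id1 (0.49), Id2 (0.49) and Id3 (1.505) over the 3 cultures, of Irf8 (2.04), Bcl6 (0.31), Id2 (0.19) and Id3 (0.68) in the ligated femur, and of Irf8 (0.89), Bcl6 (0.70), Prdm1 (-0.64), Id2 (0.0485) and Id3 (0.18) in the unligated femur. For site in LSD1WT Prdm1 (-0.34) and Id2 (0.0780) turned, and for the site interaction Irf8 (-1.22) and Prdm1 (0.21). The block by mouse turned Prdm1 (-0.33) and Id2 (0.0965) for site in LSD1WT, and Irf8 (-1.19) and Prdm1 (0.22) in the interaction. Bcl6 over the 3 cultures was at 0.00996 with upper-quartile scaling, 0.0127 without a filter and 0.0323 with the conflicting library as femur, which gave 0.0679 in the ligated femur. The causes were not tested.

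The replicate number shared across genotypes marks different mice. With it as a block, 403 genes passed over the 3 cultures (544 without), no member did, and Prdm1 turned to 0.67 over the 3 cultures, 0.39 for the mandible and 0.62 for femur with ligature. Deviations of same-numbered libraries correlated at -0.0226 in the ligated and 0.224 in the unligated femur. Site results with the block by mouse stand in the report.

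Leaving out 1 library at a time turned signs as follows, as lowest and highest log2 value. Over the 3 cultures Irf8 ran from -0.44 to 0.37, Bcl6 from -0.11 to 0.36, Prdm1 from -0.41 to 0.31, Id2 from -0.31 to 0.22 and Id3 from -0.66 to 0.84. With ligature the femur value of Irf8 ran from -1.47 to 1.95, Bcl6 from -0.61 to 0.22, Prdm1 from -0.94 to 2.28, Id2 from -0.86 to 0.0982 and Id3 from -1.56 to 0.59. Without ligature that of Irf8 ran from -1.63 to 0.89, Bcl6 from -1.07 to 0.69, Prdm1 from -0.64 to 3.67, Id2 from -1.48 to 0.0477 and Id3 from -3.42 to 0.18. For site in LSD1WT Prdm1 ran from -0.38 to 2.80 and Id2 from -0.96 to 0.0414, and for the interaction Irf8 from -1.16 to 2.30 and Prdm1 from -2.92 to 0.27. With 2 libraries per condition, and at 1 to 6 CPM for Id1 in most, small changes were not detectable. Large estimates could fail too in the fit to 12 libraries. By edgeR, Id3 in the mandible (9.68-fold, adjusted p = 0.785) and Id1 in the unligated femur (-3.74 on the log2 scale, adjusted p = 0.71) did not pass.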
